A study of Gallus gallus with 7 samples.

Results

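The regions described here are promoters of genes that were highly expressed in early vagal neural crest, seen through chromatin pull-downs made at a later stage. A region was a member if it lay on a placed autosome, if its centre was within 1 kb of the nearest transcription start site (TSS), and if the gene of that TSS had at least 50 CPM (counts scaled to the library's total) in the RNA library of Hamburger and Hamilton stage 10 (HH10). This rule gave 2813 regions of 25469 in the deposited chromatin table, or 2813 of the 6410 placed autosomal promoters. They belong to 2792 genes, of which 21 have 2 members and none has more. The members were chosen from the listed regions by position and HH10 counts, so their expression is given as a description. The rule used no chromatin value. Only promoters with a region in the deposited table could be members, and how those regions were called is not stated.

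Vagal neural crest cells arise at the level of the hindbrain and form the enteric nervous system and parts of the heart outflow tract. Sox10 is an HMG-box transcription factor that maintains neural crest progenitors and glial fate, and tfap2B belongs to the AP-2 family, which acts early in crest specification. Promoters are the sites where RNA polymerase starts, and those of active genes are usually open chromatin. An input is sheared chromatin sequenced without a pull-down, and it carries the regional profile that fragmentation, mapping and sequencing give by themselves.

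The embryos were wild-type chickens, and cells were sorted from dissected vagal regions by citrine fluorescence. The HH10 RNA library (n = 1) came from cells positive for the NC2 reporter, electroporated at HH4. The 6 chromatin libraries came from HH18 cells positive for the E2 reporter, electroporated at HH8, and comprise 2 libraries each of sox10, tfap2B and input. In the pull-downs the factor was introduced from a plasmid with an Avi tag that BirA biotinylates, and streptavidin beads took the place of an antibody, so the bound protein is an introduced copy. A control pull-down that lacks the tagged factor is not among them. Nothing in the labels tells whether replicates are separate sets of embryos, so the p-values measure the spread between these libraries, which may be technical. Stage and reporter both differ between the RNA and the chromatin, and their effects cannot be told apart.

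The members had ample reads in most libraries. Their median was 113 and 58 reads per region with sox10, 229 and 74 with tfap2B, and 205 and 764 in the inputs. No member had 3 or fewer reads in sox10 replicate 1 or in either tfap2B library, and 1 did in sox10 replicate 2. In input replicate 1, 89 members (3.16%) had 3 or fewer reads, against 4 in input replicate 2. Levels below are scaled reads, the deposited values, in which each library's reads are multiplied by 1 constant. The files pair no gene ID with a symbol, so genes are named by their Ensembl identifiers, no function is assigned to them, and the labelled cell type was not checked against marker genes.

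Highly expressed genes carried a chromatin region at their TSS far more often than weakly expressed ones. Of the 4535 genes with at least 50 CPM on the chromosomes concerned, 3181 (70.1%, 95% Wilson interval 68.8 to 71.5%) had a region centred within 1 kb of the TSS. Among the 13199 genes under 50 CPM the share was 30.7% (29.9 to 31.5%). The share went up through the expression classes, from 14.8% of genes with 0 counts to 52.3% at 10 to under 50 CPM, 65.9% at 50 to under 100 CPM and 77.7% (72.1 to 82.4%) at 500 CPM or more. The sources used here do not state how, or from which libraries, regions were called, so this share describes the deposited list and not one factor. The RNA is from a pool of sorted cells, in which fewer expressing cells and less RNA per cell cannot be told apart. The intervals cover counting error only.

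**Figure D1:**
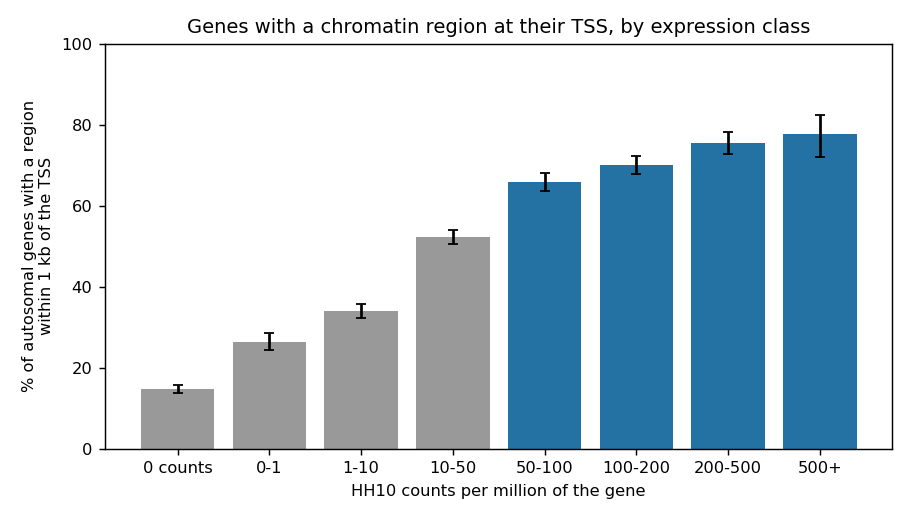
Percent of autosomal genes with a chromatin region centred within 1 kb of their TSS (y axis), by CPM at HH10 (x axis, classes include their lower bound). Bars are shares and error bars 95% Wilson intervals; the 4 blue classes at 50 CPM or more lie between 65.9% and 77.7%, all above the 4 grey classes.

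The members spanned from 50 to 5398 CPM at HH10, with a median of 132 CPM and quartiles of 81.8 and 229 CPM. At the lower edge of the rule, members at chromosome 15, 7738971 (ENSGALG00000005706), chromosome 18, 9986699 (ENSGALG00000032336) and chromosome 1, 166719758 (ENSGALG00000016965) each had 1439 counts, the fewest that reach the limit. Just outside were promoters of ENSGALG00000008494 with 1438 counts and of ENSGALG00000026470 and ENSGALG00000015286 with 1436 counts each. On the distance side, the farthest members lay 997 and 994 bp downstream of the TSSs of ENSGALG00000007131 and ENSGALG00000036258. The nearest regions left out lay 1004 bp downstream for ENSGALG00000040521 and 1005 bp upstream for ENSGALG00000007140. Coordinates are those of the deposited table (galGal5, per the submitters' processing notes), and 2810 of the members are 500 bp wide.

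The members clustered tightly around the TSS. Their centres had a median position 46 bp downstream of it, with quartiles 64 bp upstream and 181 bp downstream, and 73.9% (95% Wilson interval 72.2 to 75.5%) lay within 250 bp. Among the other 3597 promoters, whose genes had under 50 CPM, 56.2% (54.6 to 57.9%) did. Exons were overlapped by 87.5% of the members and 77.7% of the other promoters. TSSs of genes on both strands lay within 1 kb of 16.5% (15.1 to 17.9%) of the members, against 10.3% (9.39 to 11.4%) of the other promoters. The share on chromosomes 11 to 33, which in the chicken are mostly small and gene-dense, was 34.6% for members and 35.0% for other promoters, with overlapping intervals (32.9 to 36.4% and 33.5 to 36.6%).

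The first question was how strongly these promoters were recovered in each library. The median member had 136 scaled reads in both sox10 libraries, 205 and 154 under tfap2B, and 142 and 277 in the inputs. The other promoters had 120 and 117 with sox10, 165 and 131 with tfap2B, and 136 and 244 in input. Members were thus higher than the other promoters in all 6 libraries. Setting members against other promoters of the same library removes the scaling between libraries. That difference of medians was 0.19 ± 0.03 on the log2 scale for sox10, 0.27 ± 0.06 for tfap2B and 0.12 ± 0.08 for input (SD, n = 2 libraries each). By library it was 0.17 and 0.21 with sox10, 0.31 and 0.23 with tfap2B, and 0.06 and 0.18 in input. The tfap2B libraries lay above both inputs, while sox10 replicate 1 lay just below input replicate 2.

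The difference was widest against promoters of nearly silent genes. Over the 997 promoters of genes under 1 CPM the medians were 109 and 108 scaled reads with sox10, 128 and 115 with tfap2B, and 129 and 228 in input. Members exceeded them by 0.31 and 0.33 on the log2 scale with sox10, 0.68 and 0.42 with tfap2B, and 0.15 and 0.28 in input. Every pull-down library lay above both inputs on this measure, and both tfap2B libraries lay above both sox10 libraries. Against the 1673 promoters of genes with 10 to under 50 CPM the differences were small, 0.09 and 0.13 with sox10, 0.14 and 0.10 with tfap2B, and 0.02 and 0.13 in input, and the groups overlapped.

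Above 50 CPM the pull-down signal no longer followed expression. The median of tfap2B replicate 1 was 205 scaled reads for members at 50 to under 100 CPM and 201 for those at 500 CPM or more. In sox10 replicate 1 it was 133 and 132, in sox10 replicate 2 138 and 131, and in tfap2B replicate 2 154 and 152. In the inputs the same classes had medians of 131 and 165 (replicate 1) and 269 and 297 (replicate 2), so the inputs were higher at the most expressed genes. Across the 2813 members, Spearman's rho of CPM with level ran from 0.006 to 0.01 over the pull-down libraries and was 0.07 in each input. Across all 6410 promoters it was 0.20 and 0.18 with sox10, 0.26 and 0.22 with tfap2B, and 0.03 and 0.12 in the inputs. Members share each library's depth and are not independent replicates, so these are descriptions.

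**Figure D2:**
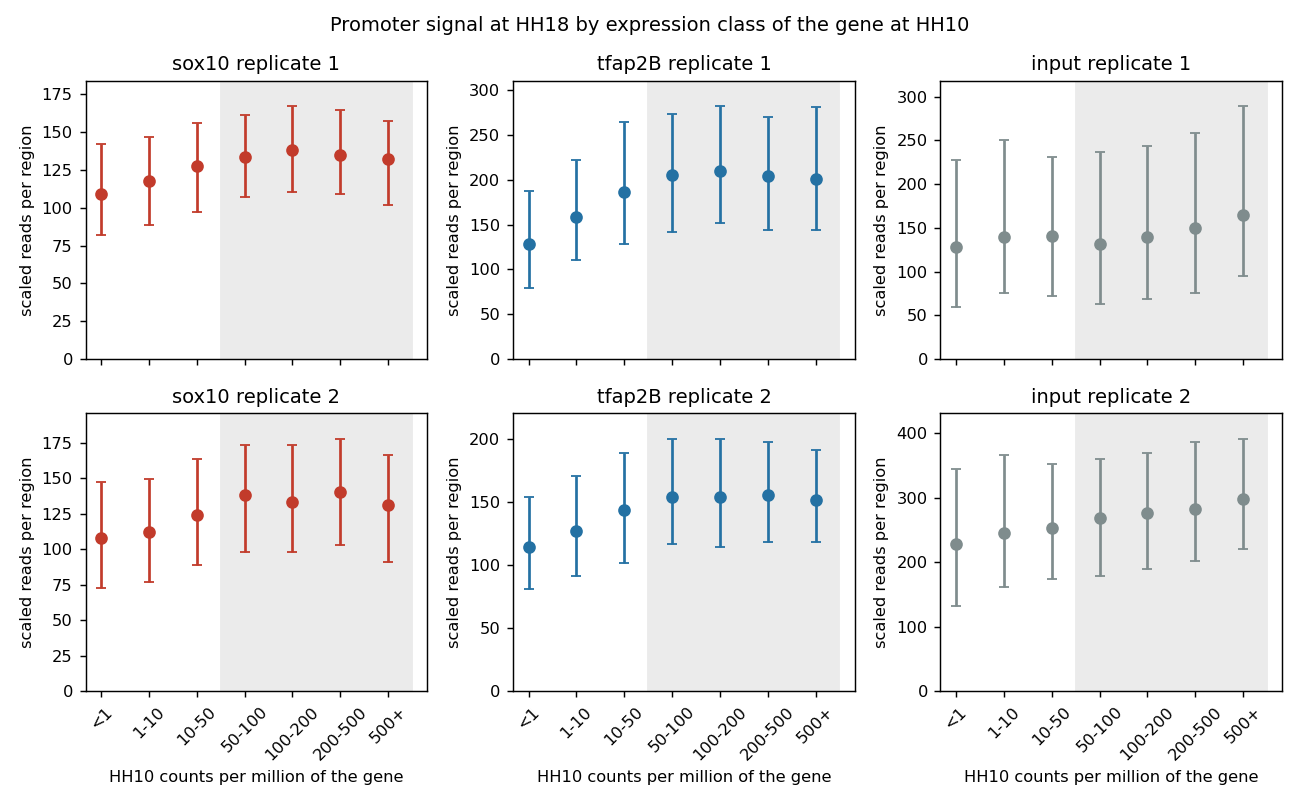
Scaled reads per promoter region at HH18 (y axis, starting at 0) by CPM of the gene at HH10 (x axis), 1 panel per library; points are medians over regions, bars run from the lower to the upper quartile, and members are shaded. Medians of the pull-downs climb to the 50 CPM class and then stay level (tfap2B replicate 1 from 128 under 1 CPM to 205 at 50 to under 100 CPM and 201 at 500 CPM or more).

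The members' levels spread less in each pull-down than in the inputs, but by a wide margin only against input replicate 1. From the 5th to the 95th percentile their level ran from 69.7 to 210 scaled reads in sox10 replicate 1, a ratio of 3.01, and the ratio was 4.14 in sox10 replicate 2. It was 5.08 and 3.94 in the tfap2B libraries. Input replicate 1 ran from 9.03 to 460 scaled reads, a ratio of 50.9, and input replicate 2 had a ratio of 5.82. Other promoters also spread less in the pull-downs. Their range was 51.7 to 204 in sox10 replicate 1 and 48.3 to 369 in tfap2B replicate 1. It was 9.59 to 486 in input replicate 1 and 56.8 to 528 in input replicate 2. Few members were high in both libraries of a group. Such regions were not counted among other promoters or all regions, so these counts describe the members without a background. In total 11 members (0.391%) reached at least 2 times the median member in both sox10 libraries, 30 (1.07%) in both tfap2B libraries, 3 in all 4, and 59 (2.10%) in both inputs.

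A single member was far above the rest. The region at chromosome 14, 4195087 to 4195587, centred 194 bp downstream of the TSS of ENSGALG00000009621 and overlapping its exons, had 2132 and 10549.9 scaled reads with sox10, 10175 and 4894 with tfap2B, and 1740 and 615 in input. It was the strongest member in all 4 pull-down libraries and exceeded the second by 5.36 and 22.7 times in sox10 and by 13.9 and 10.9 times in tfap2B. It was also the gene with the most counts at HH10 of all genes, with 5398 CPM (exact Poisson interval 5371 to 5425), and the first among members per length, with 5741 TPM (the count divided by exonic length and scaled to the library). It was the only member at 3 or more times the member median in both libraries of either factor. In the inputs it also lay above the member median, at 12.2 and 2.22 times. No other member reached 2 times the median in both sox10 libraries and both inputs. It took 0.549 and 2.62% of the members' reads with sox10, 1.63 and 1.07% with tfap2B, and 0.343 and 0.076% in the inputs.

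The other genes with very high RNA did not share this. ENSGALG00000005587, with 2782 CPM, had 90.1 and 117 scaled reads with sox10 and 138 and 171 with tfap2B, all but the last below the member medians. ENSGALG00000033212, with 2749 CPM, had 201 and 220 with sox10, 231 and 256 with tfap2B, and 43.1 and 365 in input. ENSGALG00000003578, at 2296 CPM, had 198 and 168 with sox10, 282 and 125 with tfap2B, and 158 and 274 in input. Both had sox10 levels above the member median in both libraries. ENSGALG00000001992 (1962 CPM) and ENSGALG00000004848 (1940 CPM) had 255 and 278, and 157 and 136, in sox10, against 221 and 137, and 273 and 139.5, in tfap2B. For these 5, neither sox10 against input nor sox10 against tfap2B passed the test given below, and tfap2B against input passed for ENSGALG00000001992 (log2 difference -1.36 ± 0.43, SE, limma adjusted p = 0.049).

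Ranking per gene length brought in 4 further genes, none of them strong in the pull-downs. ENSGALG00000028600 (2477 TPM) had 68.5 and 93.6 scaled reads with sox10, 94.0 and 97.9 with tfap2B, and 384 and 289 in input, and it was lower than input for both factors (log2 differences -2.04 ± 0.50 and -1.79 ± 0.50, SE, limma adjusted p = 0.0173 and 0.0324). ENSGALG00000010243 (2386 TPM) had 118 and 136 with sox10, 160 and 117 with tfap2B, and 7.64 and 232 in input. ENSGALG00000002197 (2082 TPM) had between 70.9 and 95.8 in all 4 pull-downs, and ENSGALG00000007220 (1861 TPM) between 131 and 282. In these last 3 no comparison passed the test.

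After that outlier, the members highest over the 4 pull-downs were of moderate expression. The region of ENSGALG00000008231 (82.8 CPM) had 306 and 398 scaled reads with sox10, 548 and 335 with tfap2B, and 3.47 and 505 in input. That of ENSGALG00000007353 (96.5 CPM) had 398 and 466 with sox10, 288 and 317 with tfap2B, and 14.6 and 613 in input. In both, one input was nearly empty and the other was above all or most pull-downs, and neither passed the test against input. ENSGALG00000008098, ENSGALG00000017388 and ENSGALG00000006860 (85.1 to 196 CPM) were led by tfap2B replicate 1, with 734, 711 and 637 scaled reads. At the other end, the region of ENSGALG00000016410 (204 CPM) had 33.6 and 4.68 with sox10 and 53.7 and 10.4 with tfap2B. ENSGALG00000002478 (839 CPM) had 18.02 and 16.4 in sox10, and ENSGALG00000008684 (502 CPM) 27.6 and 23.4, so high RNA at HH10 also occurred beside the weakest pull-down signal. Of these, ENSGALG00000002478 was lower than input for sox10 (log2 difference -3.01 ± 1.00, SE, limma adjusted p = 0.0442), with 266 and 79.8 in the inputs. The weak region of ENSGALG00000008684 is centred 521 bp downstream of the TSS. That gene's other member, 538 bp upstream, had 58.9 and 51.5 in sox10 and 191 and 115 in tfap2B.

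Within the members, pull-down signal varied with position. It was highest just upstream of the TSS and declined into the gene. In tfap2B replicate 1 the median was 239 scaled reads for centres 101 to 250 bp upstream and 149 for centres 500 to 1000 bp downstream. The same pair was 173 and 131 in tfap2B replicate 2, 145 and 115 in sox10 replicate 1, and 145 and 108 in sox10 replicate 2. The inputs had no such decline, with 147 and 175 in replicate 1 and 301 and 286 in replicate 2, and input replicate 1 was lowest, at 122, within 100 bp upstream. Members with TSSs on both strands were higher than those with TSSs on 1 strand in every library, by medians of 231 against 201 in tfap2B replicate 1, 165 against 152 in tfap2B replicate 2, 144 against 133 and 147 against 133 in sox10, and 145 against 141 and 317 against 269 in input. The 118 intronic members were lowest in the pull-downs, at 0.739 and 0.724 times the member median in sox10 and 0.690 and 0.791 times in tfap2B. Their median position was 523 bp downstream of the TSS, against 54 bp for exonic members, and overlap class and position were not separated. None of these traits was particular to the members. For the same pair of positions the other promoters had 170 and 133 in tfap2B replicate 1 and 120 and 112 in sox10 replicate 1. Other promoters with TSSs on both strands were also higher in every library, and their intronic regions were also lowest in the pull-downs.

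**Figure D3:**
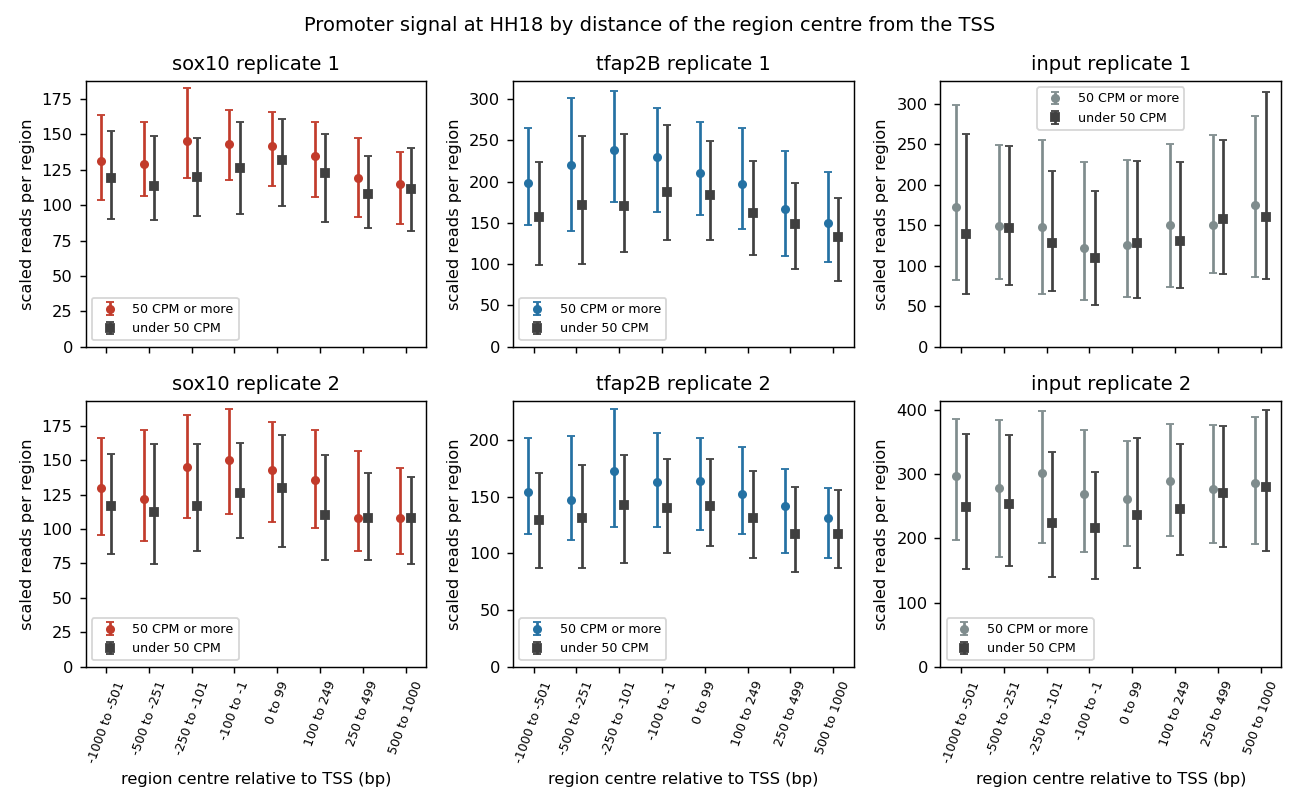
Scaled reads per region at HH18 (y axis, starting at 0) by the position of the region centre relative to the TSS in bp (x axis, negative is upstream), 1 panel per library; points are medians and bars quartiles over members (circles, 50 CPM or more) and other promoters (squares, under 50 CPM). Pull-down medians decline downstream (239 to 149 in tfap2B replicate 1), and the inputs do not follow (147 to 175 in replicate 1).

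The comparison of sox10 with input asks at which of these promoters sox10 chromatin was enriched. The test was limma, with its variance prior trended on mean level, on log2(scaled reads + 1), fitted over all 25281 regions that passed a low-read filter, with Benjamini-Hochberg adjusted p under 0.05. All 2813 members passed the filter. Of them 45 were higher in sox10 (1.60%) and 420 lower (14.9%), against 18.4% higher and 22.3% lower among all regions. Other promoters had 2.81% higher and 17.3% lower. All regions include unplaced ones, which the rule shuts out, and 13888 of the 25469 are placed. Autosomal regions over 1 kb from a TSS had 26.8% higher and 14.4% lower. Both shares of the members lay under those of other promoters, and the share of higher members was far under that of all regions. The median log2 difference of the members was -0.62, against -0.75 for the other promoters, 0.26 for autosomal regions over 1 kb from a TSS and -0.40 for all regions. Both sox10 libraries exceeded both inputs at 8.32% of the members (30.6% of all regions), and both lay below at 48.7% (44.4% of all regions). For the other promoters these shares were 9.76% and 52.9%.

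The levels of the called members follow in part from their selection on the difference from input. The 45 members above input had medians of 165 and 190 scaled reads in sox10, against 136 in both libraries over all members, and 18.1 and 33.02 in the inputs, against 142 and 277. The 420 members below input had medians of 385 and 392 in the inputs and 120 and 105 in sox10. Chromosomes 1 to 5 held 62.2% of the members above input and 31.4% of those below, against 47.1% of all members. This split was not counted for called regions outside the members. Input medians on chromosomes 1 to 5 were 126 and 255 for members, against 158 and 310 on chromosomes 11 to 33. Other promoters had the same order, with 122 and 226 against 158 and 267. The part of the input level in these calls was not tested. Leaving out the members with 3 or fewer reads in either input left 31 higher and 420 lower.

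The members above input that met the rule for naming numbered 4; the rule asked for groups that do not overlap and a mean level at or above the median member. The region in an intron of ENSGALG00000012658 (chromosome 1, 53947376 to 53947876, 88.6 CPM), 576 bp downstream of the TSS, had 249 and 206 scaled reads in sox10 and 24.3 and 10.5 in input, which is 3.73 ± 0.74 on the log2 scale (SE, limma adjusted p = 0.00943). Its tfap2B levels were 489 and 154, also above both inputs. The region of ENSGALG00000001446 (chromosome 17, 8882205 to 8882705, 178 CPM), 160 bp upstream, had 394 and 386 with sox10, 116 and 156 with tfap2B, and 25.7 and 88.5 in input. It differed from input by 3.00 ± 0.65 (SE, limma adjusted p = 0.0125), and in it sox10 was above tfap2B in all libraries, though that difference did not pass (1.53 ± 0.34, SE, limma adjusted p = 0.053). The region of ENSGALG00000010341 (chromosome 3, 30965390 to 30965890, 354 CPM) had 309 and 360 in sox10 against 61.1 and 49.4 in input (2.58 ± 0.46, SE). That of ENSGALG00000032366 (chromosome 10, 17013708 to 17014208, 179 CPM), an intergenic region 628 bp upstream, had 273 and 204 against 38.2 and 49.7 (2.41 ± 0.48, SE). EdgeR's quasi-likelihood test also called these 4. With limma 0 of the 4 passed when either sox10 library was left out, and all 4 passed without any other single library.

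Of the members below input, 8 were named. The region of ENSGALG00000033569 (chromosome 21, 546087 to 546587, 167 CPM) had 3517 and 694 scaled reads in the inputs, and 90.1 and 129 in sox10, or -3.85 ± 0.74 on the log2 scale (SE, limma adjusted p = 0.00845). The region of ENSGALG00000008187 (chromosome 10, 19794270 to 19794770, 310 CPM) had 761 and 441 in the inputs, 75.7 and 49.1 with sox10 and 158 and 162 with tfap2B (-3.23 ± 0.50, SE). The remaining 6 named, of ENSGALG00000003294, ENSGALG00000006253, ENSGALG00000008609, ENSGALG00000011402, ENSGALG00000003199 and ENSGALG00000038097, had log2 differences from -2.97 to -2.68. In each of the 8, both inputs were above all 4 pull-downs. Without sox10 replicate 1, 5 of the 8 calls remained, without sox10 replicate 2, 0 did, and all 8 did without any other library. Members at 500 CPM or more were below input in 23.2% of cases and those at 50 to under 100 CPM in 13.1%. The share was 22.3% over all regions, which include unplaced ones, and 17.3% over other promoters. Over autosomal regions more than 1 kb from a TSS it was 14.4%. The top class was thus near all regions, but above other promoters and those distant autosomal regions. In the same order, the 2 classes of members had sox10 medians of 132 and 133 (replicate 1) and 131 and 138 (replicate 2). Their input medians were 165 and 131 (replicate 1) and 297 and 269 (replicate 2).

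The direction of these calls depended on the scaling. Of the called members 9.68% were higher on the deposited scale, 26.1% under TMM, 51.2% with DESeq2 size factors and 71.0% with total reads, as the median of all regions moved from -0.40 to -0.15, 0.07 and 0.35. Relative to all regions the members' median was -0.22 as deposited and -0.21 under each of the other 3. Each scaling multiplies a library by 1 constant, which shifts members and all regions alike. This relative value could therefore hardly move, and it is no check on the scaling. Without sox10 replicate 1 there were 3 higher and 13 lower members, without sox10 replicate 2 there were 1 and 0, without tfap2B replicate 1 there were 18 and 269, without tfap2B replicate 2 there were 19 and 294. Among all 25281 regions these 4 fits called 965 and 972, 462 and 203, 2985 and 4205, and 2951 and 4277. Dropping input replicate 1 gave 53 and 1190 members beside 6654 and 8864 of all regions, and dropping input replicate 2 gave 585 and 480 beside 7095 and 6539. Where a group was left with 1 library, that library was assumed to vary like the other groups.

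The comparison of tfap2B with input gave 54 higher members (1.92%) and 153 lower (5.44%), against 10.8% and 17.4% of all regions and 2.98% and 8.82% of the other promoters. Among autosomal regions over 1 kb from a TSS the shares were 18.4% and 10.4%. The members' median log2 difference was -0.18, against -0.37 for the other promoters and -0.14 for all regions. Both tfap2B libraries exceeded both inputs at 12.5% of the members (26.1% of all regions) and lay below both at 30.8% (37.4% of all regions). For the other promoters these shares were 12.5% and 37.4%. The 54 members had medians of 267 and 210 scaled reads in tfap2B, above the 205 and 154 of all members, and 22.2 and 49.5 in the inputs. Of the members above input, 33 were called for both factors, which is 73.3% of the sox10 list and 61.1% of the tfap2B list, and of those below input 127 were, or 30.2% and 83.0%. Both comparisons share the same 2 inputs. The overlap was not counted over all regions or other promoters, so these shares describe the members without a background.

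For tfap2B the naming rule was met by 8 members. The region of ENSGALG00000039387 (chromosome 2, 51330180 to 51330680, 457 CPM), 63 bp upstream of the TSS, had 411 and 354 scaled reads in tfap2B, 174 and 173 in sox10, and 2.78 and 85.3 in input, or 4.40 ± 1.25 on the log2 scale (SE, limma adjusted p = 0.0346). The region of ENSGALG00000012658 followed with 4.01 ± 0.74 (SE, limma adjusted p = 0.00964), and that of ENSGALG00000032366 with 321 and 319 scaled reads against 38.2 and 49.7 in input (2.85 ± 0.48, SE). The strongest member of all, at ENSGALG00000009621, differed by 2.77 ± 0.86 (SE, limma adjusted p = 0.0465), but edgeR's quasi-likelihood test did not call it (adjusted p = 0.262). Nor did edgeR's test call ENSGALG00000039387 (adjusted p = 0.0586), which had 4 reads in input replicate 1, and it called the other 6. For sox10 the difference of 2.20 ± 0.86 at ENSGALG00000009621 did not pass (SE, limma adjusted p = 0.0727).

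The other 4 included members in which tfap2B lay above sox10. The region of ENSGALG00000007652 (chromosome 12, 14866730 to 14867230, 379 CPM) had 364 and 337 in tfap2B, 179 and 159 in sox10, and 30.6 and 113 in input (2.55 ± 0.65, SE). The region of ENSGALG00000004153 (chromosome 5, 1629619 to 1630119, 55.8 CPM) had 456 and 279, 216 and 192, and 45.9 and 105 (2.35 ± 0.56, SE). Both orders held without overlap between tfap2B and sox10, but the difference between the factors passed the test in neither. The regions of ENSGALG00000010341 and ENSGALG00000005767 differed from input by 2.01 and 1.96. Of the 8 calls above input, 2 and 3 remained when sox10 replicate 1 or 2 was dropped, and 8 and 7 when input replicate 1 or 2 was. Lower than input were, among 8 named, the region of ENSGALG00000033569 again (-3.68 ± 0.74, SE), with 94.0 and 156 in tfap2B, and regions of ENSGALG00000008609 (-3.43), ENSGALG00000006253 (-3.08), ENSGALG00000029837 (-3.02), ENSGALG00000003265 (-2.82), ENSGALG00000012836 (-2.74), ENSGALG00000017627 (-2.67) and ENSGALG00000009728 (-2.62).

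**Figure D4:**
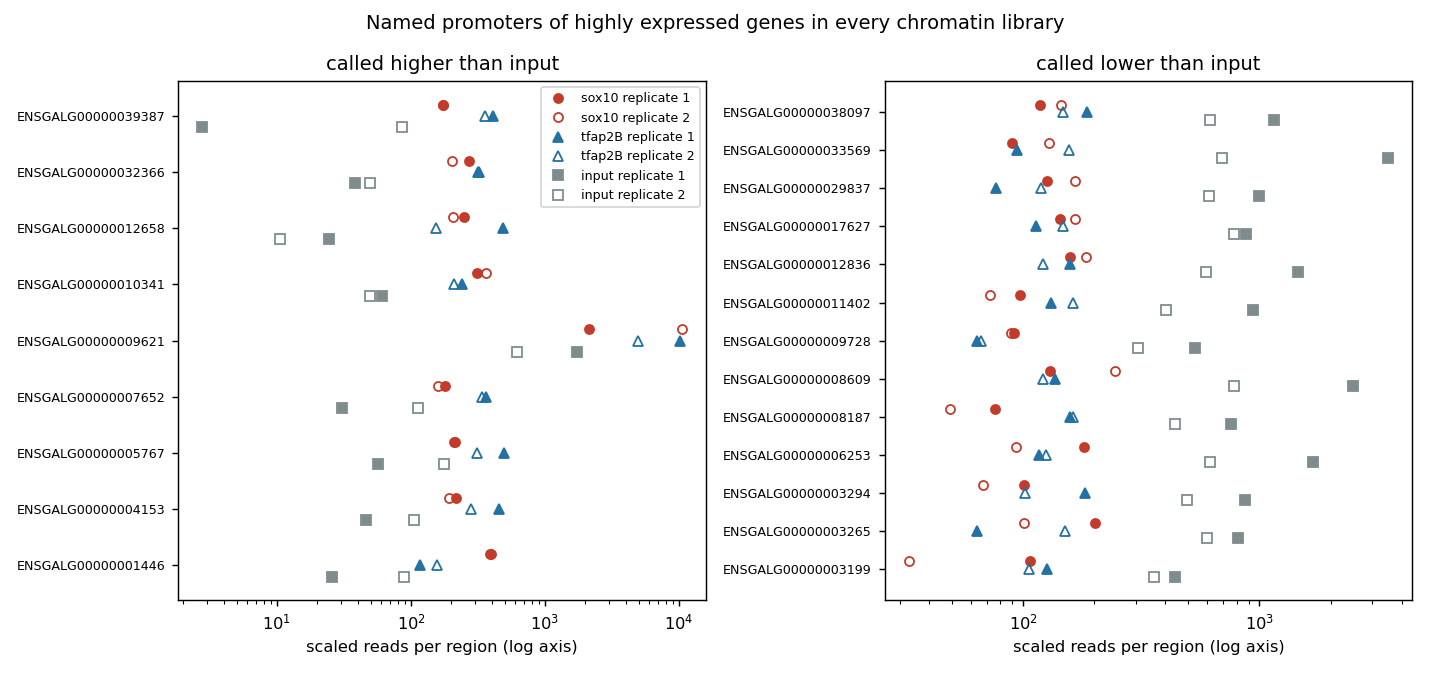
Scaled reads per region on a log axis (x axis) for the named members, 1 row per gene (y axis), called higher (left) or lower (right) than input for sox10 or tfap2B; filled symbols are replicate 1 and open symbols replicate 2. At ENSGALG00000009621 the pull-downs reach 2132 to 10549.9, and in the right panel both inputs lie above all 4 pull-downs in every row.

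Leaving out either tfap2B library ended every tfap2B call, among all regions as among the members. Without tfap2B replicate 1 limma called 0 members higher and 0 lower (smallest adjusted p 0.066, 345 members at an unadjusted p under 0.05), and without tfap2B replicate 2 again 0 and 0 (0.0576, 258 members). With all libraries edgeR's test called 58 higher and 27 lower members beside 1923 and 2404 of all regions. Dropping sox10 replicate 1 gave 15 and 37 (1159 and 2296 of all regions), and dropping sox10 replicate 2 gave 16 and 41 (1171 and 2371). Dropping input replicate 1 gave 87 and 507 (6166 and 6684), and dropping input replicate 2 gave 755 and 253 (6122 and 5696). The members' median ran from -0.65 to 0.24 over the fits that left out 1 library, so its sign turned. It was lowest without input replicate 1, when that of all regions was -0.55, and highest without input replicate 2, when that of all regions was 0.02. Of the called members 26.1% were higher on the deposited scale, 65.9% under TMM, 74.7% under DESeq2 factors and 93.0% under total reads. The members' median relative to all regions, which such scalings can hardly move, was -0.04 as deposited and -0.03 under each of the other 3.

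The direct comparison of sox10 with tfap2B, fitted on the 4 pull-downs without the inputs, asks whether the factors differ at these promoters. As a group the members leaned to tfap2B, and so did the other promoters. The median log2 difference, sox10 minus tfap2B, was -0.40 over members, -0.34 over other promoters, 0.13 over autosomal regions more than 1 kb from a TSS and 0.05 over all regions. Of the members 2313 were below 0 and 500 above. Both sox10 libraries lay below both tfap2B libraries at 1230 members (43.7%, against 21.9% of all regions) and above both at 146 (5.19%, against 25.9%). For the other promoters these shares were 37.2% and 8.95%. Promoters at 10 to under 50 CPM were close to the members, with 42.0% and 6.69% and a median of -0.41. Relative to all regions the members' median was -0.45 as deposited. It was the same under all 3 other scalings, which shift members and all regions alike and so could hardly change it. Without tfap2B replicate 1 the members' median was -0.20 (all regions 0.03) and without tfap2B replicate 2 it was -0.63 (all regions 0.02), while it was -0.39 and -0.40 without either sox10 library.

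Differences within single libraries restate the same values and are no separate support for this lean. The regions compared with below include those over 1 kb from a TSS, where sox10 minus tfap2B had a median of 0.13. Against other promoters of the same library the difference was 0.19 for sox10 and 0.27 for tfap2B. Compared with all placed autosomal regions of the same library, the median member was higher by 0.12 and 0.13 on the log2 scale in sox10, by 0.49 and 0.32 in tfap2B, and by 0.40 in each input. The sox10 libraries thus lay below the 4 others, and the tfap2B libraries lay on either side of the inputs. Compared with autosomal regions over 1 kb from a TSS, members exceeded by 0.13 in each sox10 library, by 0.96 and 0.62 in tfap2B and by 1.07 and 1.13 in the inputs. Members took 12.7 and 12.6% of the reads in regions with sox10, 19.9 and 15.6% with tfap2B, and 9.14 and 16.0% in input.

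**Figure D5:**
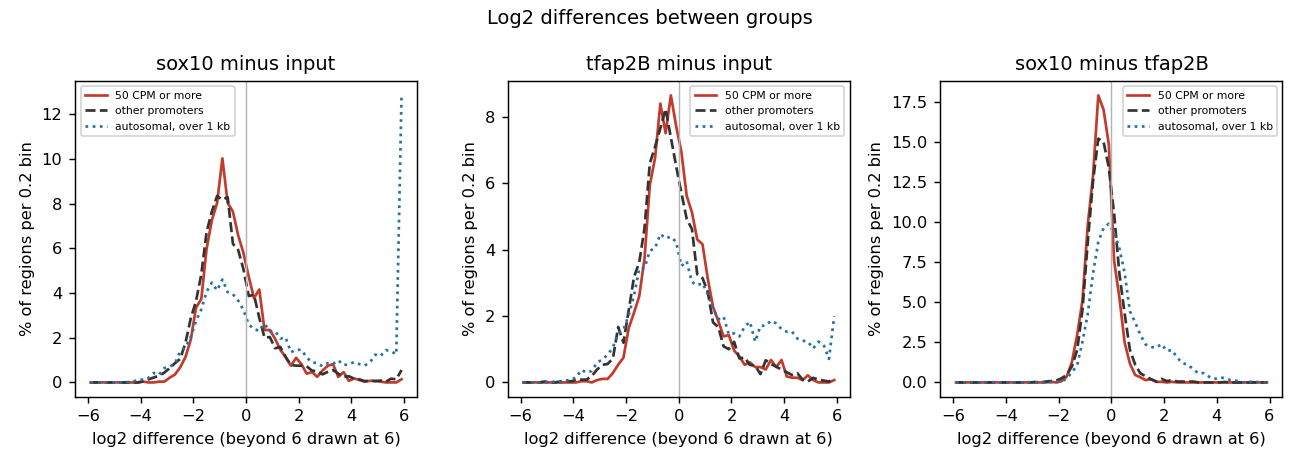
Distribution of log2 differences per region (x axis, values beyond 6 drawn at 6) as percent of regions per bin of 0.2 (y axis), for members (red), other promoters (black dashes) and autosomal regions over 1 kb from a TSS (blue dots), in the 3 comparisons. In sox10 minus tfap2B the members' median is -0.40 and that of the regions over 1 kb away is 0.13.

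Single members rarely passed this test. Of 2813, 1 was higher in sox10 (0.0355%) and 2 were higher in tfap2B (0.0711%), against 2.47% and 0.103% of all regions and 0.445% and 0.111% of the other promoters. The sox10 member lay in an intron of ENSGALG00000019663 (chromosome 2, 20648373 to 20648873, 54.8 CPM), 563 bp downstream of the TSS. It had 202 and 304 scaled reads with sox10, 51.9 and 45.8 with tfap2B, and 38.2 and 101 in input. Its log2 difference was 2.32 ± 0.41 (SE, limma adjusted p = 0.0263), and edgeR's test also called it. It was named because of the small count of calls, since its mean level was below the median member. The same gene has another member centred 87 bp upstream of the TSS, where sox10 did not lead. That region had 159 scaled reads in each sox10 library, 190 and 204 in tfap2B, and 135 and 348 in input.

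The tfap2B members were as follows. The region of ENSGALG00000038528 (chromosome 3, 16544133 to 16544633, 160 CPM), 926 bp downstream of the TSS, had 597 and 400 scaled reads in tfap2B and 159 and 149.7 in sox10, or -1.66 ± 0.34 on the log2 scale (SE, limma adjusted p = 0.0423). Its inputs, 302 and 211, lay between the factors. The region of ENSGALG00000014688 (chromosome 1, 77546378 to 77546878, 237 CPM), 118 bp upstream, had 452 and 354 in tfap2B, 147 and 124 in sox10, and 120 and 104 in input (-1.56 ± 0.34, SE, limma adjusted p = 0.0483), and its tfap2B level was also above input (1.83 ± 0.44, SE, limma adjusted p = 0.0212). EdgeR's test called neither (adjusted p = 0.0569 and 0.0619). Without sox10 replicate 1 or 2 limma called 0 members in either direction (157 and 64 members at an unadjusted p under 0.05) and 0 of all regions. Without tfap2B replicate 1 or 2 it called 17 and 53 higher in sox10 and 90 and 905 higher in tfap2B, beside 1490 and 4116, and 322 and 3220, of all regions, when the sox10 pair alone set the spread. With all libraries 391 of the 2813 members had an unadjusted p under 0.05. The same held for 3488 of all 25281 regions, a like share, and for 408 of 3596 other promoters.

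Across members the factors resembled each other more than either resembled an input. Pearson's r of the log2 levels over the 2813 members was 0.66 within sox10, 0.53 within tfap2B and 0.52 within input. Between sox10 and tfap2B libraries it ran from 0.42 to 0.59. Sox10 replicate 1 correlated more closely with tfap2B replicate 2 (0.59) than the tfap2B libraries did with each other. Between pull-downs and input replicate 1 it ran from -0.12 to -0.01, and with input replicate 2 from 0.18 to 0.27. Members share sequence and position effects in all libraries, so these values are descriptions. The spread between replicates was smaller in the pull-downs. The interquartile range of the log2 difference between replicates over members was 0.62 with sox10, 0.82 with tfap2B and 1.53 with input. The inputs were left out of the fit between the factors because earlier results had shown them to spread most. The tests against input pooled this wider spread with that of the pull-downs. With 1 variance weight per group, lower members fell from 420 to 143 for sox10 (5632 to 3327 of all regions). For tfap2B they fell from 153 to 23 (4401 to 2116 of all regions).

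The 21 genes with 2 members gave no steady order. The member nearer to the TSS was the higher of the pair in 12 and 8 genes for sox10, 13 and 10 for tfap2B and 14 in each input. The starts of the pairs were 552 to 1641 bp apart, with a median of 1031 bp.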

How the data were processed

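The authors deposited 1 chromatin table and 1 gene table. Per the submitters' processing notes the build was galGal5; DiffBind, DESeq2, Bowtie and featureCounts are named there beside Subread 1.4.5 and STAR 2.4.2a, each without its role. The deposited chromatin values are a signal: whole reads times 1 constant per library (100% of values whole within 0.01 read, constants 0.363 to 2.34), with 1366132 to 13921317 reads in regions per library and at least 1 read everywhere. The sources used here do not state where those constants come from. The deposited gene table holds raw counts, 28777461 in the HH10 library (50 CPM is 1439 counts); 21 other columns of per-sample values were left out. No strand setting is stated, so reads of genes that overlap antisense may be mixed.

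A TSS was the outermost exon end of a gene, with distances from the region centre. Tests were limma 3.58.1 fits on log2(scaled reads + 1), which understates changes of low regions, after filterByExpr of edgeR 4.0.16 removed 188 regions; inputs were compared in a fit of all 6 libraries (3 residual degrees of freedom) and sox10 with tfap2B in a fit of 4 (2 residual degrees of freedom). EdgeR and DESeq2 1.42.0 tests on recovered reads, other scalings, filters, pseudocounts, rule limits and left-out libraries were alternatives. The edgeR test used TMM factors and the DESeq2 test its own size factors, so both changed the scaling together with the test. Named were, per comparison and direction, up to 8 called members with the largest difference, no overlap and a mean at or above the median member, and the extremes by CPM, TPM, pull-down level and rule limits. Members and lists were chosen with earlier results of these data known. No genome of the files' build was used, so no sequence is shown, and 0 of 24881 gene IDs matched the reference gene table.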

Additional observations from a re-analysis of the deposited data

How the results depend on the processing

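Counts of called members are given as higher and lower against input, or higher in sox10 and higher in tfap2B. The sox10 counts against input, 45 and 420, became 110 and 45 with total reads, 75 and 212 with TMM factors, 106 and 101 with DESeq2 size factors, 107 and 117 with the DESeq2 Wald test, 85 and 143 with 1 variance weight per group and 8 and 23 at adjusted p under 0.01. Among all 25281 regions the main counts were 4660 and 5632. The scalings in turn gave 6206 and 2475, 4545 and 3872, and 4977 and 2806 of all regions. The Wald test gave 5367 and 3951, the weights 4761 and 3327, and the stricter limit 1553 and 1349. EdgeR, which also applied TMM factors, called 96 members lower (2900 of all regions). With only the 2 groups compared 15 were higher (3030 of all regions), and 27 were higher of the 1808 members at 100 CPM. The tfap2B counts, 54 and 153, became 187 and 14, 118 and 61, 139 and 47, 153 and 64 in the same first 4 settings, 6 and 3 at adjusted p under 0.01 and 20 and 65 with only the 2 groups compared. Among all regions the main tfap2B counts were 2721 and 4401. Those first settings in turn gave 4724 and 2163, 2841 and 2908, 2939 and 2634, and 3968 and 3955 of all regions. The stricter limit gave 747 and 1058, and only the 2 groups compared 1230 and 2858. Higher members were 91 with a pseudocount of 10 (3318 of all regions) and 35 of the 1808 at 100 CPM. Lower members were 27 with edgeR (2404 of all regions) and 23 with variance weights (2116).

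The counts between the factors, 1 and 2, became 2 and 27 with the DESeq2 Wald test, 2 and 1 with DESeq2 size factors, 4 and 52 on placed chromosomes only, 2 and 6 with a pseudocount of 10, 3 and 12 with variance weights, 0 and 1 within 0.5 kb, and 0 and 0 with limma at adjusted p under 0.01, with 391 members at an unadjusted p under 0.05. They were also 0 and 0 in a limma fit of all 6 libraries, with 93 such members. Among all 25281 regions the main counts were 625 and 26, with 3488 at an unadjusted p under 0.05. The first settings in turn gave 917 and 153, 779 and 20, 1123 and 144 of 13885 placed, 827 and 50, and 997 and 80. Where the members had 0 and 0, all regions had 0 and 0 too. Higher in tfap2B were 5 members with total reads (35 of all regions) and 0 with edgeR (21). Higher in sox10 were 0 at 100 CPM and 4 with edge distances. Leaving out 1 library each moved the sox10 counts from 1 to 585 and 0 to 1190, those of tfap2B from 0 to 755 and 0 to 507, and those between factors from 0 to 53 and 0 to 905. The median log2 differences then ran from -1.09 to -0.18, -0.65 to 0.24 and -0.63 to -0.20, and with total reads the first 2 became 0.14 and 0.62. The causes were not tested. With the replicate number as a block the counts were 238 lower for sox10, 82 lower for tfap2B, and 5 and 36 between the factors. Among all regions they were 4310, 3307, and 1173 and 198. Deviations of same-numbered libraries correlated at 0.05, -0.03 and -0.27 over all regions and at 0.04, 0.14 and 0.06 over the members. With 2 libraries a group, and no label that ties numbers together, the numbers are not shown to pair the libraries. Crossing the tfap2B numbers, chosen after seeing the data, gave 116 higher (3603 of all regions).

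Within libraries, members minus other promoters moved by over 1 SD against narrower classes. Under 1 CPM it was 0.31 and 0.33 in sox10, 0.68 and 0.42 in tfap2B and 0.28 in input replicate 2. At 1 to under 10 CPM it was 0.20 and 0.27 in sox10. At 10 to under 50 CPM it was 0.092 and 0.13 in sox10, and 0.14 and 0.10 in tfap2B. With a 25 CPM minimum it was 0.25 in sox10 replicate 2 and 0.40 in tfap2B replicate 1, and with 100 CPM 0.16 in sox10 replicate 2. The sign was positive in every library under each of these. In input replicate 1, 89 members had 3 or fewer reads, although its total was the second highest, and counts this low limit their differences from input.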
